A study of Mus musculus with 19 samples.

Results

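The 79 protein-coding genes that flank the leptin receptor gene Lepr on mouse chromosome 4 are described here across induced pluripotent stem cells with a corrected, a mutant or a normal Lepr. They were selected on position and on measured level: a start between positions 90000000 and 113000000 of chromosome 4 in GRCm38, the type protein-coding in GENCODE M21, and a mean of at least 1 CPM (the share of a library's counts on a gene, on a common scale) over all 19 libraries. The window held 149 protein-coding genes. Of these, 12 predicted genes and 7 named genes, Lepr among them, were left out by the rule, and values of those 19 are not given. Of the 130 left, 9 were listed at 0 in every library, 42 were above 0 and under 1 CPM, and 79 were members, of 52143 gene identifiers in the table. Lepr lies at chr4:101717404-101815352 on the forward strand. Of the members, 24 start before it (proximal) and 55 after it (distal), from 10.47 Mb proximal (Elavl2) to 10 Mb distal (Spata6).

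Fibroblasts of embryos at day 14.5, from parents carrying a single copy of the db allele (OB-Rdb/+), were reprogrammed with the STEMCCA lentivirus, which carries Oct4, Sox2, Klf4 and cMyc, and poly(A) RNA of the resulting stem cells was sequenced. In 2 corrected lines (4 libraries) the db mutation of db/db cells had been repaired with CRISPR-Cas9. There were 4 lines homozygous for the db mutation (db/db, 8 libraries) and 4 wild-type control lines (7 libraries). All lines thus carry the same lentivirus, and neither the db/db line that was edited nor whether each corrected line is a single clone is given in the labels. The titles name db/db lines 1 and 3 db5, db/db lines 2 and 4 db7, control lines 1 and 3 B6_A5 and control lines 2 and 4 B6_B1, each name once with the letter a and once with b. The mark B6 is in every control title and in no db/db or corrected title, its meaning is not given in the labels, and control lines are called A5 and B1 from here on.

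Leptin is a hormone of fat cells, and its receptor is a cytokine receptor that signals through JAK and STAT proteins, best known for restraining food intake through neurons of the hypothalamus. The db mutation alters splicing of the transcript of the long receptor form, which loses its signalling domain. Genes close together on a chromosome are inherited together, so breeding an allele carries its neighbours along, whereas editing at a single site leaves the neighbouring genes as they were. The groups therefore allow the question of which neighbours of Lepr differ in db/db lines and still differ after the correction. Sequence differences between the lines were not measured.

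The promoters of 5 genes on which that question turns are printed. All 5 passed the test in db/db against control lines and, in the same direction, in corrected against control lines. They cover rises proximal to Lepr and falls on both sides of it. Sequences are RefSeq's, build GRCm38.p6, 5′ to 3′ along the strand of the gene, from 250 bases before to 50 bases after its start. Capitals mark matches to a STAT site (TTCNNNGAA), a CCAAT box (CCAAT), a GC box (GGGCGG) or a TATA box (TATAAA) on either strand. The windows are chr4:100776429-100776728 (+) for Cachd1, chr4:99829109-99829408 (-) for Itgb3bp, chr4:95967129-95967428 (+) for Hook1, chr4:107314113-107314412 (+) for Yipf1 and chr4:107253484-107253783 (-) for Lrrc42.
Cachd1: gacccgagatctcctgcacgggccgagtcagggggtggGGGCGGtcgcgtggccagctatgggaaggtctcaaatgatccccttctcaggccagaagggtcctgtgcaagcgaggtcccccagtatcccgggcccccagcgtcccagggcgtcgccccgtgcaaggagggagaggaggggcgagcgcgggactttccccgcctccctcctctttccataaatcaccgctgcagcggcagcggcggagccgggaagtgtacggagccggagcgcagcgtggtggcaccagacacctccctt
Itgb3bp: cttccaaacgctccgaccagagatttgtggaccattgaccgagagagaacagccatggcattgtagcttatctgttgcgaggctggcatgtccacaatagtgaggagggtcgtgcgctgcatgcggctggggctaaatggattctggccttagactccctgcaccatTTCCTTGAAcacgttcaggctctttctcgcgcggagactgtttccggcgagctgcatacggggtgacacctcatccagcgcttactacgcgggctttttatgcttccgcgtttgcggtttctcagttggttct
Hook1: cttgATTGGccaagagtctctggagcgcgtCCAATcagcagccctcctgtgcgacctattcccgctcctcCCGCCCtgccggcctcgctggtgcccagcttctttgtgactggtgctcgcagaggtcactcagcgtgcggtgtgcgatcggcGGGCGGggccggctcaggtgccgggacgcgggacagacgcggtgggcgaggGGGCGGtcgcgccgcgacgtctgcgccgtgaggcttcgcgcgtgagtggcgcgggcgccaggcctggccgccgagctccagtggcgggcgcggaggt
Yipf1: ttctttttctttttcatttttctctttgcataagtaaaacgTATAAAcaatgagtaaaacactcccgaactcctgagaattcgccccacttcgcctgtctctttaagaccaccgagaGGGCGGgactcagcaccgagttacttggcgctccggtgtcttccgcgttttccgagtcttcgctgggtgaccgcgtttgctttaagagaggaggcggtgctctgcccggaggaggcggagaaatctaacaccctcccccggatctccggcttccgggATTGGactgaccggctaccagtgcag
Lrrc42: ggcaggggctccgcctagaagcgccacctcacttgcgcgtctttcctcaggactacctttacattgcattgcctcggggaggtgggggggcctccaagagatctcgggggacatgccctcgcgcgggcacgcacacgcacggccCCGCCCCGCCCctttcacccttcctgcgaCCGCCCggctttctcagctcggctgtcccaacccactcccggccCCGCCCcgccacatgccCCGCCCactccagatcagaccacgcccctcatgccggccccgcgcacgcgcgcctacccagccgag

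RefSeq windows were found for 69 of the 79 members. A STAT site stood in 6 of them (8.7%), against 8.3% of all 32851 windows, and in 1 of the 12 matched members called between db/db and control lines, Itgb3bp. A CCAAT box stood in 25 (36.2%, against 37.4% of all windows), a GC box in 44 (63.8%, against 35.7%) and a TATA box in 5 (7.25%, against 13.6%). GC boxes were thus more frequent and TATA boxes less frequent than over all windows, which include genes with no reads in these cells, and no test was made. RefSeq and GENCODE M21 differ on the start of Itgb3bp: its GENCODE model, on the reverse strand, reaches to position 99929813, far upstream of the printed window, which follows RefSeq. The window of Itgb3bp also holds the GENCODE start of Efcab7 (position 99829198), and that of Lrrc42 shares 258 bases with the window of Hspb11, which is transcribed away from it.

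Mean levels of the members ran from 1.047 CPM (Wdr78) to 935.8 CPM (L1td1), and 61 of the 79 had a mean of at least 5 CPM. Per kilobase of its longest transcript, L1td1, an RNA-binding protein of pluripotent cells, was highest, at 317.8 CPM per kb in corrected, 325.9 in db/db and 309.7 in control lines. Next to the selection threshold, the members with the lowest mean were Wdr78 (1.047 CPM), Tusc1 (1.054) and Podn (1.103), and the genes just outside it were Zfp352 (0.8318), Nfia (0.7851) and Glis1 (0.7458). All 79 members passed the filter on low counts and were tested.

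The libraries held 27333914 to 41203703 counts (median 34455891). The line was the unit of every test, with duplicate libraries summed. In the second library of db/db line 2, 4.81% of counts lay on Gm42418, a transcript overlapping ribosomal RNA, against 0.0688% to 0.514% in the other 18 libraries. Without that library 15 members were called for db/db against control and 38 for corrected against db/db (17.5% and 36.7% of all genes). For corrected against control 41 were called (33.1% of all genes). Lines of a shared name were near copies: over the members, the median absolute log2 difference was 0.053 to 0.113 in the 4 pairs of a shared name, 0.139 to 0.281 in the 8 pairs of different names of a genotype, and 0.047 between both corrected lines. The p-values therefore measure the spread between these lines and are too small where lines are near copies. Results with the shared name as the unit (2 per group) stand beside the counts. In that setting the 2 corrected lines still count as 2 units, although they are near copies, so it does not remove near copies from the corrected group.

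Markers of pluripotent stem cells were expressed in every line, with the 10 listed genes together at 6165 to 6182 CPM in corrected, 6749 to 7179 in db/db and 6335 to 6870 in control lines. The 10 fibroblast markers together were at 199.5 to 248.9 CPM in corrected, 145.3 to 208.2 in db/db and 272.7 to 363.8 in control lines, with Lum under 0.1 CPM, and 6 of them fell and 0 rose in db/db against control lines. The 6 neural markers were at 28.95 to 29.44 CPM in corrected, 57.26 to 76.43 in db/db and 76.24 to 99.78 in control lines, with Dcx under 0.1 CPM. Of these 1 rose and 3 fell in db/db against control lines. The 6 markers of extraembryonic endoderm were at 15.11 to 16.51, 8.255 to 15.81 and 9.758 to 11.58 CPM in corrected, db/db and control lines, and the 6 of trophoblast at 43.7 to 43.75, 47.99 to 70.63 and 38.24 to 62.81. Fibroblast sums thus lay lower in corrected and db/db than in control lines, and neural sums lower in corrected lines than in both other groups. Fibroblast sums of corrected and db/db lines overlapped, as did neural sums of db/db and control lines. The part of these markers in the results for the members was not tested. In such bulk samples fewer cells of a type and less RNA per cell cannot be told apart.

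Between db/db and control lines, 15 of the 79 members (19%) passed edgeR's quasi-likelihood test at a Benjamini-Hochberg adjusted p under 0.05 over 19700 genes. Called in the same way were 16.9% of all genes tested and 19.1% of 12046 protein-coding genes outside the window with at least 1 CPM, so the share of the members was close to the background. Of the members 9 rose (11.4%, against 7.41% of all genes) and 6 fell (7.59%, against 9.5%). Among the rises were Cachd1, Patj, Itgb3bp, Elavl4, Efcab7, Eps15, Elavl2 and Tut4, and the falls were Lexm, Tusc1, Hook1, Lrrc42, Yipf1 and Pars2. The change was at least 2-fold in 7 of the 15. With shared names as the unit, edgeR called 0 members (14 at an unadjusted p under 0.05, 17.7%, against 15.9% of all 21134 genes tested) and 0.161% of all genes. Limma-voom, in which the shared name was a random block, called 7 members (8.86%, against 5.07% of all genes): Cachd1, Patj, Itgb3bp, Hook1, Tusc1, Lexm and Lrrc42.

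Of these 15 members, 11 were also called in corrected against control lines in the same direction and are said here to stay different (13.9% of the members, 6 higher and 5 lower). Of all genes tested 5.53% were so called, and of the protein-coding genes outside the window 6.08%. Both comparisons share the control lines, so the count is a description with no test of its own. The 11 divide by how the corrected lines compared with db/db lines. There were 6, Tusc1, Efcab7, Lexm, Lrrc42 and Yipf1 among them, that were not called between corrected and db/db lines, whereas Cachd1, Hook1, Tut4 and Eps15 lay further from control than db/db lines did, and Itgb3bp lay part of the way back. With shared names as the unit the count was 0 (0.137% of all genes). With the limma-voom block it was 5 (2.14% of all genes): Cachd1, Hook1, Lexm, Lrrc42 and Tusc1. With library size alone as the scaling it was 9 (5.27% of all genes), without Lrrc42 and Tut4. Leaving out either corrected line leaves 1 line in that group, and fewer members and fewer of all genes then stayed different.

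**Figure D1:**
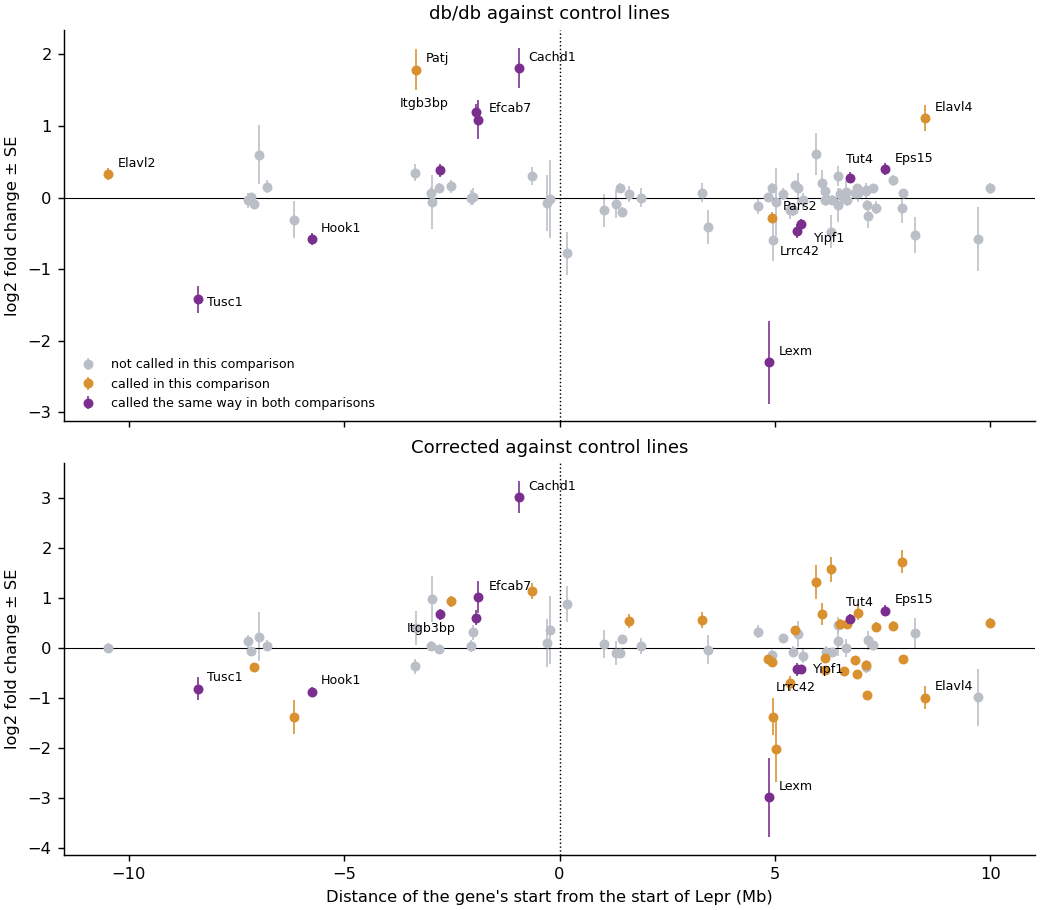
Log2 fold change (± SE, vertical axis) of the 79 members by the distance of their start from that of Lepr in Mb (negative values proximal), for db/db against control lines above and corrected against control lines below. Purple points are the 11 members called the same way in both comparisons, orange points other members called in that comparison, and grey points members not called. The purple points lie from 8.38 Mb proximal (Tusc1) to 7.56 Mb distal (Eps15).

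By distance, the called members were spread over the window. Within 2.5 Mb of Lepr 3 of 15 members were called between db/db and control lines (20%), from 2.5 to 5 Mb 4 of 15 (26.7%), from 5 to 7.5 Mb 4 of 39 (10.3%), and beyond 7.5 Mb 4 of 10 (40.0%). Those that stayed different in corrected lines numbered 3, 2, 4 and 2 in the same bins (20%, 13.3%, 10.3% and 20%). On the rest of chromosome 4, 136 of 713 protein-coding genes were called (19.1%) and 41 stayed so (5.75%). The median absolute log2 fold change of db/db against control lines was 0.14, 0.16, 0.11 and 0.36 in the bins, 0.15 on the rest of the chromosome and 0.18 over the protein-coding genes outside the window. Bins of 10 to 39 genes give coarse shares, and no test was made across them. In the nearest bin the 3 staying genes, Itgb3bp, Efcab7 and Cachd1, were all proximal (3 of 8), while 0 of the 7 distal members there was called by edgeR.

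**Figure D2:**
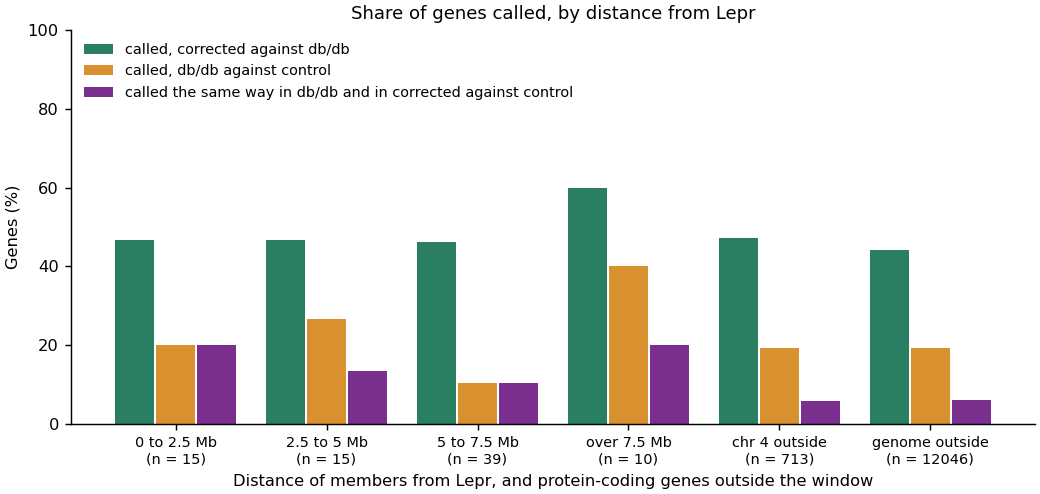
Share of genes called (%) by distance from Lepr for members (4 bins on the left) and for protein-coding genes outside the window on chromosome 4 and in the genome, for corrected against db/db lines (green), db/db against control lines (orange) and the same direction in db/db and in corrected against control lines (purple). The orange share is highest beyond 7.5 Mb (40.0% of 10 genes) and lowest from 5 to 7.5 Mb (10.3% of 39).

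Cachd1, a membrane protein that modulates voltage-gated calcium channels, lies 0.94 Mb proximal to Lepr and had the largest rise. It was at 49.96 and 51.0 CPM in the corrected lines, at 20.2, 24.1, 18.9 and 24.7 in db/db lines 1 to 4, and at 9.48, 3.75, 7.99 and 4.06 in control lines 1 to 4. The groups do not overlap, and the corrected lines lie above both others. The log2 change was 1.81 ± 0.28 in db/db against control lines (edgeR adjusted p = 0.0029), and the corrected lines lay 1.2 ± 0.31 above db/db (edgeR adjusted p = 0.014) and 3.01 ± 0.32 above control lines (edgeR adjusted p = 0.00022). With shared names as the unit, the difference of corrected from control lines kept its call (edgeR adjusted p = 0.018), and the difference between db/db and control lines lost it (edgeR adjusted p = 0.13). Among control lines, the B1 lines were at 0.4472 of the mean of the A5 lines.

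Itgb3bp encodes a component of the centromere (CENP-R), and Efcab7 a protein of the ciliary base that anchors the EVC complex in Hedgehog signalling. Itgb3bp was at 1.96 and 2.02 CPM in corrected lines, at 2.79, 3.16, 3.09 and 2.86 in db/db lines 1 to 4, and at 1.49, 1.29, 1.29 and 1.16 in control lines 1 to 4. The corrected lines lie between the other groups, which do not overlap. It rose in db/db against control lines by log2 1.19 ± 0.12 (edgeR adjusted p = 0.00038). The corrected lines were 0.61 ± 0.15 above control (edgeR adjusted p = 0.011) and -0.58 ± 0.15 from db/db lines (edgeR adjusted p = 0.014, and 0.051 with library size alone as the scaling).

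Efcab7 was at 1.44 and 1.43 CPM in corrected lines, at 1.33, 1.59, 1.42 and 1.69 in db/db lines, and at 1.02, 0.489, 0.936 and 0.428 in control lines. Both corrected lines lie among the db/db lines. Its log2 change was 1.09 ± 0.27 in db/db against control lines (edgeR adjusted p = 0.024) and 1.02 ± 0.32 in corrected against control lines (edgeR adjusted p = 0.035). The first call ended without control line 2 or 4, or without db/db line 2 or 4 (edgeR adjusted p = 0.065, 0.053, 0.055 and 0.054). In GENCODE M21 the whole spans of Itgb3bp and Efcab7, introns included, overlap on opposite strands over 83591 bases, and overlap of their exons was not measured. The libraries were stranded, but whether the counting used the strand is not stated. Reads of any exon sequence that both genes share may therefore not be told apart.

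Farther proximal to Lepr, a fall that stayed was that of Hook1. Hook1, an adaptor between cargo and the motor dynein on microtubules, lies 5.75 Mb proximal. It was at 49.4 and 51.1 CPM in corrected lines, at 63.2, 52.0, 67.9 and 61.8 in db/db lines, and at 88.4, 93.2, 88.3 and 96.8 in control lines. All corrected and db/db lines lie below all control lines. It fell by 0.58 ± 0.08 on the log2 scale in db/db against control lines (edgeR adjusted p = 0.0015) and by 0.87 ± 0.10 in corrected against control lines (edgeR adjusted p = 0.00034). The further fall of corrected against db/db lines (log2 -0.28 ± 0.10, edgeR adjusted p = 0.044) ended with library size alone as the scaling (edgeR adjusted p = 0.43).

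Distal to Lepr, Eps15, an adaptor of clathrin-mediated endocytosis, and Tut4, which adds uridines to precursors of the microRNA let-7 together with Lin28, rose. They lie 7.56 Mb (Eps15) and 6.74 Mb (Tut4) from it. Eps15 was at 53.4 and 52.9 CPM in corrected lines, at 38.4, 42.1, 39.6 and 46.5 in db/db lines, and at 34.8, 28.6, 33.7 and 29.3 in control lines. Tut4 was at 99.3 and 94.5 CPM in corrected lines, at 72.3, 77.6, 71.7 and 91.6 in db/db lines, and at 64.7, 64.0, 62.6 and 66.7 in control lines. In both genes the 3 groups do not overlap, with corrected highest and control lowest. The log2 change of Eps15 was 0.40 ± 0.09 in db/db against control lines (edgeR adjusted p = 0.013) and 0.35 ± 0.10 in corrected relative to db/db lines (edgeR adjusted p = 0.024). For Tut4 it was 0.28 ± 0.08 in db/db against control lines (edgeR adjusted p = 0.036) and 0.31 ± 0.09 in corrected relative to db/db lines (edgeR adjusted p = 0.029). The call of Tut4 between db/db and control lines ended when any one of 7 of the 10 lines was left out, with edgeR adjusted p-values of 0.055 to 0.086.

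There were 4 further falls that stayed, those of Lexm (4.87 Mb distal), Tusc1 (8.38 Mb proximal), Lrrc42 (5.52 Mb distal) and Yipf1 (5.6 Mb distal). Lexm, known in mouse lymphocytes for driving expansion of T cells, was at 0.783 and 0.779 CPM in corrected lines, at 2.28, 0.321, 2.06 and 0.297 in db/db lines, and at 7.1, 5.66, 6.76 and 5.15 in control lines. Its db5 and db7 lines differ several-fold from each other, and every db/db and corrected line lies below every control line. The log2 change was -2.30 ± 0.58 in db/db (edgeR adjusted p = 0.024) and -2.98 ± 0.79 in corrected lines (edgeR adjusted p = 0.018), each against control. Tusc1, a candidate tumour suppressor, was at 0.992 and 0.851 CPM in corrected lines, at 0.623, 0.474, 0.82 and 0.501 in db/db lines, and at 1.66, 1.6, 1.69 and 1.54 in control lines. The corrected lines lie between the others. The log2 change of Tusc1 against control lines was -1.42 ± 0.19 in db/db lines (edgeR adjusted p = 0.0014). It was -0.81 ± 0.23 in corrected lines (edgeR adjusted p = 0.023). The corrected lines lay 0.61 ± 0.23 above db/db lines (edgeR adjusted p = 0.061, and 0.023 with library size alone as the scaling).

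Lrrc42, a leucine-rich repeat protein, was at 22.2 and 21.2 CPM in corrected lines, at 18.0, 23.9, 18.2 and 23.5 in db/db lines, and at 27.9, 29.6, 28.5 and 30.0 in control lines. Yipf1, a membrane protein of the Golgi, was at 11.5 and 12.6 CPM in corrected lines, at 12.2, 12.5, 12.8 and 12.5 in db/db lines, and at 15.7, 16.2, 15.8 and 16.8 in control lines. For both, every corrected and db/db line lay below every control line. Lrrc42 fell by 0.47 ± 0.10 on the log2 scale in db/db (edgeR adjusted p = 0.014) and by 0.42 ± 0.13 in corrected lines (edgeR adjusted p = 0.03, and 0.11 with library size alone), each against control. Yipf1 fell by 0.37 ± 0.07 in db/db (edgeR adjusted p = 0.0063) and by 0.42 ± 0.08 in corrected lines (edgeR adjusted p = 0.0044), each against control. The promoter partner of Lrrc42, Hspb11, which encodes a subunit of the ciliary transport particle, was at 2.21 and 1.88 CPM in corrected lines, at 1.18, 2.03, 1.58 and 2.53 in db/db lines and at 1.66, 1.65, 1.78 and 1.58 in control lines, and was not called (edgeR adjusted p = 0.72 in db/db against control lines).

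**Figure D3:**
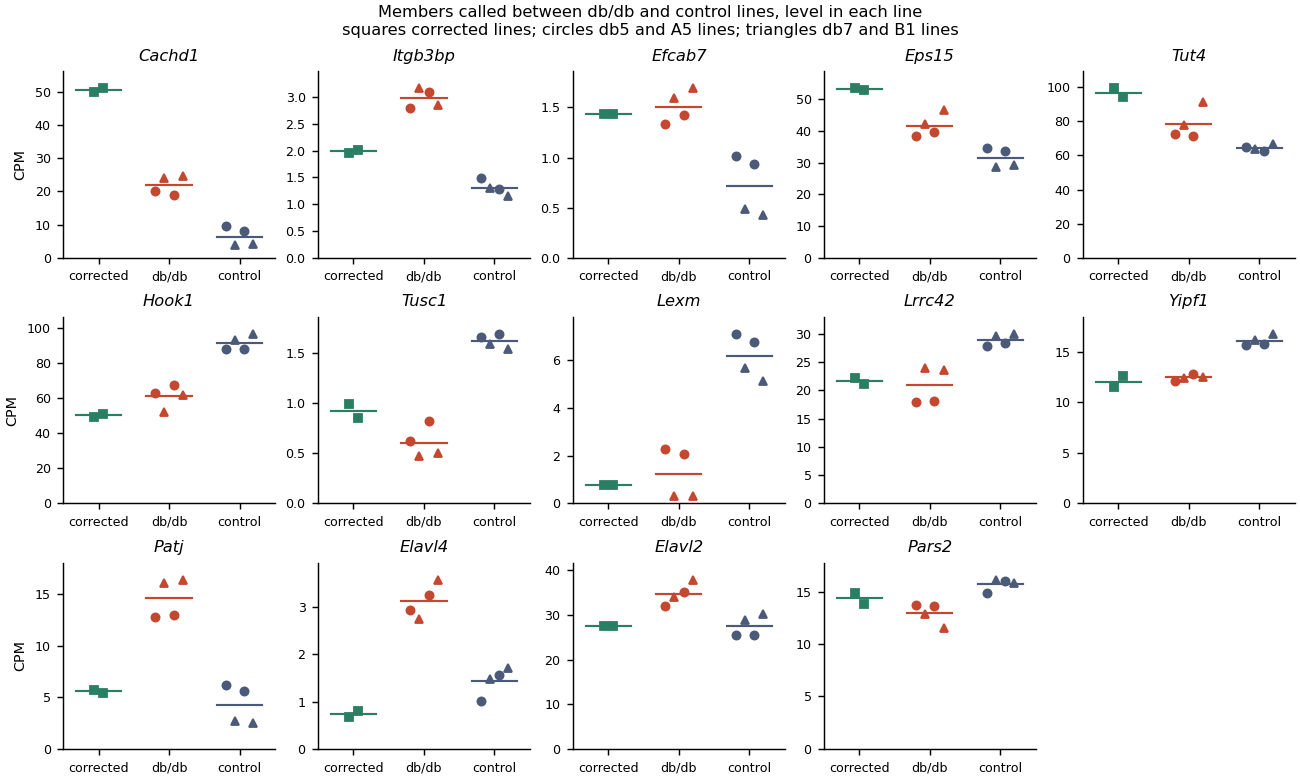
Level (CPM) in each line of 14 members called between db/db and control lines, with corrected, db/db and control lines from left to right and the horizontal bar at the group mean. Squares are corrected lines, circles db5 and A5 lines and triangles db7 and B1 lines. In the first 10 panels the corrected lines stay on the db/db side of the control lines, and in Patj, Elavl2 and Pars2 they lie within the range of the control lines or between it and the db/db lines, while in Elavl4 they lie below both.

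The 4 called members that did not stay were Patj (3.32 Mb proximal), Elavl4 (8.49 Mb distal), Elavl2 and Pars2 (4.93 Mb distal). Patj, a scaffold of the Crumbs complex of apical polarity, was at 5.74 and 5.47 CPM in corrected lines, at 12.8, 16.1, 13.0 and 16.4 in db/db lines, and at 6.18, 2.73, 5.57 and 2.48 in control lines. Its corrected lines lie among the control lines. It rose by log2 1.79 ± 0.28 in db/db against control lines (edgeR adjusted p = 0.0034) and fell by 1.38 ± 0.36 in corrected relative to db/db lines (edgeR adjusted p = 0.014). Elavl4 and Elavl2 encode RNA-binding proteins of neurons (HuD and HuB). Elavl4 was at 0.666 and 0.794 CPM in corrected lines, at 2.93, 2.76, 3.25 and 3.58 in db/db lines, and at 1.02, 1.48, 1.56 and 1.71 in control lines. It rose by log2 1.11 ± 0.18 in db/db against control lines (edgeR adjusted p = 0.0034), while corrected lines lay below both db/db lines (-2.10 ± 0.24, edgeR adjusted p = 0.00024) and control lines (-0.99 ± 0.23, edgeR adjusted p = 0.0093). Of the neural markers, Map2 averaged 6.726 CPM in corrected, 16.99 in db/db and 8.75 in control lines, and Pax6 1.494, 4.977 and 2.006, with the same order of groups as Elavl4. Tubb3 averaged 12.56, 38.94 and 65.81 CPM, Nes 7.214, 5.187 and 9.98, and Neurod1 1.197, 0.5874 and 1.263, with other orders. Their part in the change of Elavl4 was not tested.

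Elavl2, the outermost proximal member, was at 27.5 CPM in both corrected lines, at 32.0, 34.0, 35.1 and 37.9 in db/db lines, and at 25.5, 29.0, 25.6 and 30.2 in control lines. Its log2 change was 0.33 ± 0.08 in db/db against control lines (edgeR adjusted p = 0.019) and -0.34 ± 0.10 in corrected relative to db/db lines (edgeR adjusted p = 0.022, and 0.25 with library size alone). Pars2, the mitochondrial prolyl-tRNA synthetase, was named after its values were seen. It was at 14.9 and 13.8 CPM in corrected lines, at 13.7, 12.9, 13.6 and 11.5 in db/db lines and at 14.9, 16.1, 16.0 and 15.8 in control lines, with a log2 change of -0.28 ± 0.08 in db/db against control lines (edgeR adjusted p = 0.037). The corrected lines were called neither against db/db nor against control lines (edgeR adjusted p = 0.24 and 0.33).

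Counted without a test, 21 of the 79 members (26.6%) had all db/db lines above or all below the control lines, 13 higher and 8 lower. The background was 23.3% of all genes tested and 26.6% of the protein-coding genes outside the window. All 15 called members are among the 21. A gap between the groups with a ratio of at least 5 to 4 was found in 8 members (10.1%), against 5.22% of the protein-coding genes outside. Of the 21, both corrected lines lay beyond the db/db lines in 8, among them in 4, between the groups in 2, among the control lines in 2 and beyond the control lines in 3. In the other 2, Yipf1 and Pars2, 1 corrected line lay among the db/db lines (Yipf1) or the control lines (Pars2), and the other lay beyond the db/db lines (Yipf1) or between the groups (Pars2). Those that lay with or beyond the db/db lines without a call in db/db against control lines were Ift74, Tmem59, Rnf11 and Nrd1, with log2 changes of -0.09, 0.17, 0.24 and 0.13 (edgeR adjusted p = 0.25, 0.081, 0.061 and 0.14).

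The 6 members nearest to Lepr on each side are given whatever they did. Proximal to it, besides Cachd1, Itgb3bp and Efcab7, these are Raver2 (0.65 Mb), Ak4 (0.30 Mb) and Dnajc6 (0.22 Mb). Raver2, a partner of polypyrimidine-tract-binding protein, was at 12.8 and 12.4 CPM in corrected lines, at 6.91, 7.27, 7.13 and 6.80 in db/db lines, and at 6.83, 4.87, 6.58 and 4.65 in control lines. It rose in corrected relative to db/db lines (log2 0.84 ± 0.16, edgeR adjusted p = 0.0029) and against control lines (1.14 ± 0.16, edgeR adjusted p = 0.00077), and db/db against control lines were not called (0.30 ± 0.13, edgeR adjusted p = 0.15).

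Ak4, a mitochondrial adenylate kinase, was at 140.4 and 143.5 CPM in corrected lines, at 111.8, 131.8, 116.9 and 139.4 in db/db lines, and at 57.5, 200.5, 61.7 and 207.1 in control lines. Dnajc6, which encodes auxilin, a factor that uncoats clathrin vesicles, was at 26.97 and 27.48 CPM in corrected lines, at 11.3, 29.8, 10.9 and 31.9 in db/db lines, and at 7.99, 33.6, 8.02 and 34.9 in control lines. In both genes the A5 control lines were low and the B1 control lines high, and in Dnajc6 the db5 and db7 lines divided likewise. Neither was called in db/db against control lines (edgeR adjusted p = 0.91 for Ak4 and 0.99 for Dnajc6).

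Distal to Lepr, C130073F10Rik (0.17 Mb) was at 5.22 and 5.09 CPM in corrected lines, at 2.12, 0.998, 2.27 and 1.14 in db/db lines, and at 2.04, 3.55, 2.14 and 3.46 in control lines. It rose in corrected relative to db/db lines (log2 1.65 ± 0.35, edgeR adjusted p = 0.0051), and db/db lines did not differ from control lines by the test (-0.78 ± 0.30, edgeR adjusted p = 0.1). Slc35d1, a transporter of nucleotide sugars, was at 18.5 and 18.9 CPM in corrected lines, at 14.1, 14.6, 14.2 and 14.7 in db/db lines, and at 18.1, 15.5, 16.5 and 15.9 in control lines. It was called in corrected relative to db/db lines (0.37 ± 0.08, edgeR adjusted p = 0.0071) and not in db/db against control lines (-0.20 ± 0.07, edgeR adjusted p = 0.08), although those lines do not overlap. The db/db difference was called with library size alone as the scaling (edgeR adjusted p = 0.039) and by DESeq2's test (adjusted p = 0.026). Oma1, a protease of the inner mitochondrial membrane that cleaves Opa1, was at 14.1 and 14.9 CPM in corrected lines, at 8.59, 11.8, 9.08 and 11.3 in db/db lines, and at 9.31, 10.3, 9.73 and 10.1 in control lines. It rose in corrected lines against both (0.51 ± 0.14 and 0.55 ± 0.14, edgeR adjusted p = 0.016 against db/db and 0.012 against control), calls that ended with shared names as the unit (edgeR adjusted p = 0.094 and 0.087).

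Mier1, a regulator that binds histone deacetylases, was at 46.3 and 47.6 CPM in corrected lines, at 53.8, 51.6, 56.4 and 57.5 in db/db lines and at 51.9, 47.1, 50.9 and 49.6 in control lines. Its fall in corrected relative to db/db lines (log2 -0.22 ± 0.07, edgeR adjusted p = 0.029) ended with library size alone as the scaling (edgeR adjusted p = 0.6). Sgip1, which binds membranes in endocytosis, and Wdr78, a protein of ciliary dynein, were not called in any comparison. Sgip1 averaged 2.76 ± 0.34 CPM in corrected (SD, n = 2), 2.29 ± 0.60 in db/db and 2.59 ± 0.62 in control lines (SD, n = 4 each), and Wdr78 1.02 ± 0.21, 1.03 ± 0.13 and 1.103 ± 0.23 in the same groups.

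Between corrected and db/db lines, 38 of the 79 members were called (48.1%), against 36.7% of all genes and 44.0% of the protein-coding genes outside the window. Of these 17 rose (21.5%, against 18.7% of all genes) and 21 fell (26.6%, against 18.0%). Between corrected and control lines 42 were called (53.2%, against 33.2% of all genes and 40.1% of the protein-coding genes outside), 21 higher (26.6%, against 16.2%) and 21 lower (26.6%, against 17.0%). With library size alone as the scaling, which moves the median of all genes by 0.17 and 0.13 on the log2 scale, the calls were 28 up and 9 down against db/db and 26 up and 14 down against control lines. Of all genes, 35.7% and 32.8% were then called. Of the calls of members made with TMM, 26 of 38 and 35 of 42 were kept and 0 turned direction. With shared names as the unit 17 and 16 members were called (15.5% and 12.1% of all genes). Leaving out either corrected line leaves 1 line in that group, and fewer members and fewer of all genes were then called. With shared names, calls of named members against db/db lines ended for Cachd1, Eps15, Hook1, Itgb3bp, Tut4, Patj, Elavl2, Mier1, Oma1, Slc35d1 and Spata6 (edgeR adjusted p = 0.056 to 0.11), and held for Elavl4, Raver2, C130073F10Rik, Kti12, Cc2d1b, Podn and Cdkn2c (edgeR adjusted p = 0.015 to 0.048). Against control lines they ended for Efcab7, Itgb3bp, Lexm, Lrrc42, Tusc1, Yipf1, Oma1 and Spata6 (edgeR adjusted p = 0.054 to 0.13), and held for Cachd1, Eps15, Hook1, Tut4, Elavl4, Raver2, Kti12, Cc2d1b, Podn and Cdkn2c (edgeR adjusted p = 0.018 to 0.044). The corrected lines are 2 near copies that stayed separate units with shared names, and their handling and the correction cannot be told apart.

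Not called between db/db and control lines, but called in corrected lines against both in the same direction, were 24 members (30.4%). Of these 11 were higher and 13 lower in corrected lines. Cachd1, Eps15, Tut4, Hook1 and Elavl4 were also called against both in that way. They are not among the 24, since they were called between db/db and control lines too. The share of all genes with this pattern was not counted, so the 24 give no result about the members as a set. Among the 24, those with the lowest p against db/db lines were Kti12, Cc2d1b, Podn and Cdkn2c, which lie 6.3 to 7.94 Mb distal. Against control lines, Atg4c, a protease of autophagy that lies 2.52 Mb proximal, also had one of the lowest values (log2 0.93, edgeR adjusted p = 0.00025), and it is named here after its values were seen. Kti12, which works with the Elongator complex in tRNA modification, was at 24.9 and 24.2 CPM in corrected lines, at 46.5, 43.5, 46.0 and 39.1 in db/db lines, and at 46.5, 48.7, 44.7 and 49.0 in control lines. Cc2d1b, a partner of the ESCRT membrane machinery, was at 44.7 and 46.1 CPM in corrected lines, at 67.6, 77.5, 65.7 and 72.6 in db/db lines, and at 63.7, 67.2, 65.1 and 63.4 in control lines. Both thus fell in corrected lines, by 0.83 ± 0.09 (Kti12) and 0.64 ± 0.08 (Cc2d1b) on the log2 scale against db/db lines (edgeR adjusted p = 0.00015 and 0.00033).

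Podn, a matrix proteoglycan, was at 2.53 and 2.32 CPM in corrected lines, at 0.453, 0.711, 0.433 and 0.751 in db/db lines, and at 0.695, 0.891, 0.98 and 0.684 in control lines. Cdkn2c, the cyclin-dependent kinase inhibitor p18, was at 4.35 and 3.9 CPM in corrected lines, at 1.12, 1.27, 1.38 and 0.766 in db/db lines, and at 1.24, 1.02, 1.56 and 1.17 in control lines. Both rose in corrected lines, by log2 2.05 ± 0.26 (Podn) and 1.86 ± 0.23 (Cdkn2c) against db/db lines (edgeR adjusted p = 0.00039 for each). The calls of these 4 genes against db/db lines held with shared names as the unit (edgeR adjusted p = 0.016 for Kti12, 0.019 for Cc2d1b, 0.02 for Podn and 0.018 for Cdkn2c). Both near-copy corrected lines still counted as separate units there. Spata6, a protein of the sperm flagellum and the outermost distal member, was at 18.8 and 18.3 CPM in corrected lines, at 15.0, 14.0, 15.4 and 13.0 in db/db lines and at 14.6, 13.0, 12.4 and 12.5 in control lines. It rose in corrected against db/db lines by log2 0.37 ± 0.10 (edgeR adjusted p = 0.017).

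As a whole the window shifted little. Relative to the control mean, the median log2 level of the 79 members was 0.07 and 0.096 in the corrected lines, 0.026 to 0.052 in db/db lines and -0.01 to 0.008 in control lines. On the rest of chromosome 4 it was -0.034 and -0.039 in the corrected lines, -0.013 to 0.03 in db/db lines and -0.009 to 0.013 in control lines. The members of corrected lines thus lay slightly above the rest of their chromosome, which was not tested.

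Lines of the same genotype also differed at these genes. The mean of both db7 lines was at least 1.5-fold from that of both db5 lines in 15 members (19%), against 14.6% of the protein-coding genes outside the window, and B1 from A5 control lines in 16 members (20.3%, against 14.7%). One or the other held for 21 members (26.6%). Besides Ak4 and Dnajc6, the examples named after their values were seen are Acot11, Tek, Kank4, Plpp3, Mroh7 and Bend5. Acot11, an acyl-CoA thioesterase, was at 2.95 and 3.25 CPM in corrected lines, at 15.3, 8.41, 15.6 and 9.10 in db/db lines, and at 21.5, 5.03, 19.3 and 4.85 in control lines. Tek, the endothelial angiopoietin receptor, was at 5.94 and 5.46 CPM in corrected lines, at 3.71, 10.6, 3.49 and 11.7 in db/db lines, and at 6.78, 3.84, 5.41 and 3.54 in control lines. The pairs of a shared name lie together in both genes, and the names of a genotype lie apart. Neither was called between db/db and control lines (edgeR adjusted p = 0.95 for Acot11 and 0.33 for Tek).

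Kank4, a protein of the ankyrin-repeat KANK family, was at 22.6 and 22.1 CPM in corrected lines, at 16.8, 4.96, 15.8 and 5.77 in db/db lines, and at 13.9, 8.90, 13.8 and 8.84 in control lines. Plpp3, a lipid phosphate phosphatase, was at 24.5 and 22.3 CPM in corrected lines, at 22.8, 13.8, 22.9 and 12.5 in db/db lines, and at 17.7, 29.8, 19.5 and 28.7 in control lines. In these genes the db5 lines lay above the db7 lines. Of the 79 members 28 (35.4%) were called in none of the 3 comparisons, Ak4, Dnajc6, Tek, Kank4, Plpp3 and Bend5 among them. The share of all genes called in none was not counted.

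**Figure D4:**
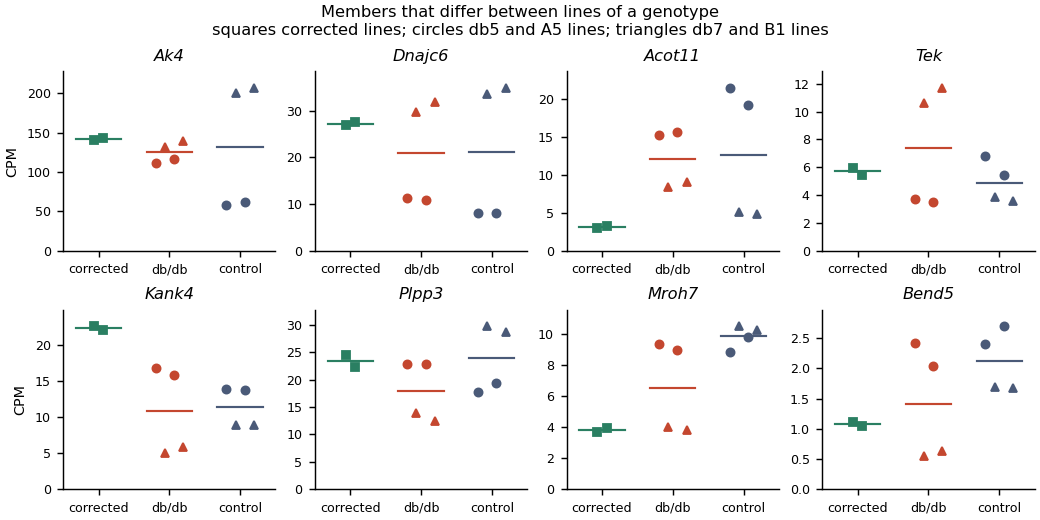
Level (CPM) in each line of 8 members that differ between lines of a genotype, with corrected, db/db and control lines from left to right and the bar at the group mean. Circles are db5 and A5 lines, triangles db7 and B1 lines and squares corrected lines. In Ak4 and Dnajc6 the B1 control lines lie 3.42-fold and 4.277-fold above the A5 control lines, while the group means of db/db and control lines are close.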

How the data were processed

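Poly(A) RNA libraries were made with a stranded TruSeq kit, per the labels' protocols. What the authors deposited are estimated counts for each gene. The submitters' processing notes name kallisto and GRCm38, while kallisto's version, its index and how genes were summed were not given in the sources used here. Of 52143 identifiers, 51250 matched GENCODE M21 (99.37% of counts). Reads of similar transcripts are shared out in such estimates, and 79.7% of values were whole within 1e-06.

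Counts were rounded per library and summed per line, since the labels do not say that duplicates came from separate cultures. All 10 lines entered a single fit in 3 groups: filterByExpr (19700 genes kept), TMM scaling and the quasi-likelihood F-test of edgeR 4.0.16 in R 4.3.3, with Benjamini-Hochberg adjustment over all genes tested and a threshold of 0.05. Line values are TMM-scaled CPM, errors of log2 fold changes are SE, and line medians used a pseudocount of 0.1 CPM. Limma 3.58.1 and DESeq2 1.42.0 served as alternatives, and Python 3.11.15, pandas 2.3.3 and matplotlib 3.10.9 made tables and figures. The fits were tested on simulated data, in which lines were drawn independently of each other. Near copies were not simulated, so that test does not cover the p-values where lines are near copies.

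The members, the marker lists and the tests were chosen with earlier results of these data known. Genes were named by a rule: the staying members, the 6 nearest members on each side, the 5 largest rises and falls among called members, up to 6 called members called the other way after correction, the 4 members of lowest p against db/db called in corrected lines against both other groups and not between these, those around the threshold of 1 CPM, and the outermost members. Counting error is largest for members near 1 CPM. A withheld result is not reported here, and counts are over all members.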

Additional observations from a re-analysis of the deposited data

Results flagged for a closer look

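In db/db line 4 Wdr78 was at 0.829 CPM, below the 1.082, 1.083 and 1.118 CPM of the other db/db lines, and its gap to the next line was 0.875 of the range of the group, above Dixon's critical value of 0.829 for 4 lines. In all, 56 groups of 4 lines were examined in this way, and chance marks about 1 in 20 of them. The gene is near the selection threshold of 1 CPM, and its groups did not differ by edgeR's test (adjusted p = 0.78 for db/db against control lines).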

How the results depend on the processing

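Of 364 log2 values of db/db against control lines compared across alternatives, 0 of called members and 10 of members not called changed direction. All 10 arose on leaving out a line, with ranges of -0.33 to 0.23 for Ak4, -0.3 to 0.34 for Dnajc6, -0.21 to 0.02 for Wdr78, -0.03 to 0.12 for Oma1 and -0.25 to 0.01 for Cdkn2c. By DESeq2's test 2 more values were called, those of Slc35d1 and Mier1 (adjusted p = 0.026 and 0.048). The members called were 15 in db/db against control lines, and 38 and 42 in corrected lines against db/db and against control, and 11 stayed. With shared names as the unit these counts were 0, 17, 16 and 0 (0.161%, 15.5%, 12.1% and 0.137% of all genes). Shared names of control and db/db lines alone, an alternative chosen after seeing the data, gave 0 for db/db against control. With limma-voom and the shared name as a block (correlation 0.71), 7 members were called between db/db and control lines (5.07% of all genes) and 5 stayed (2.14%). The first letter as a covariate gave 7 for db/db against control (8.0% of all genes). With single libraries as samples and no block 32 were called (41.3% of all genes) and 17 stayed (16.3%). With the duplicate number as a replicate block 31 were called (41.3% of all genes) and 17 stayed (16.2%). Whether duplicate numbers pair the samples is not given in the labels. Deviations of same-numbered libraries correlated at 0.013 to 0.531 in 12 pairs made of a db/db and a control line. They correlated at -0.199 to 0.18 between corrected and other lines and at -0.626 between both corrected lines. Leaving out each line gave 12 to 17, 16 to 41, 18 to 44 and 4 to 13. At a minimum of 5 CPM 7 members stayed. Without overlap, single libraries left 13 of 21 members, and each line left out gave 22 to 27. A nearest bin of 0 to 1 Mb held 1 called member, against 3 within 2.5 Mb. Of 14 named members called in db/db against control lines, 14 kept the call under DESeq2 size factors and under DESeq2's test, and 12 without each line. Depth limits the members near 1 CPM, and the cause of these shifts was not tested.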
